A study of Mus musculus with 6 samples.

Results

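Wnt ligands are secreted, lipid-modified glycoproteins that carry signals between neighbouring cells. The acyltransferase Porcn attaches the lipid in the endoplasmic reticulum, and the carrier Wls takes the ligand to the cell surface. A ligand that meets a Frizzled receptor together with Lrp5 or Lrp6 stabilises β-catenin, which then works with Tcf and Lef factors at target genes, and a ligand that meets Frizzled with Ror2 or Ryk can act through β-catenin-independent routes that govern cell shape and movement. In the pancreas, Wnt signals are known for growth of the exocrine tissue in the embryo and for the tissue's response to injury and oncogenic stress. The 10 ligand genes described here are Wnt2, Wnt4, Wnt5a, Wnt5b, Wnt6, Wnt7a, Wnt7b, Wnt9a, Wnt10a and Wnt11. Their probes were found by matching the accession of each array probe that is no control to RefSeq. That gave 14 probes, 2 for each of 4 genes (Wnt5a, Wnt5b, Wnt7b and Wnt11) and 1 for each of the other 6. The ligand genes described are 10 of the 19 mouse Wnt genes and 10 of the 23462 genes for which a probe could be named. They were chosen with earlier results of these data known.

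Gene expression was measured on 6 one-colour arrays with RNA of isolated acinar cells from the pancreas of C57BL/6 mice, 1 array per sample. In the KCS group (n = 3) the mice carried Ptf1aCre, an oncogenic allele kept silent by a loxP-flanked stop cassette until Cre acts, and Setdb1flox/flox. In the KC group (n = 3) the mice carried Ptf1aCre and the same oncogenic allele without the floxed Setdb1. Both groups thus share Cre driven from Ptf1a, a gene of the pancreatic lineage that is active before acinar and other pancreatic cells part, so that recombination is not limited to adult acinar cells. Setdb1 encodes a methyltransferase for lysine 9 of histone H3, a mark of silenced chromatin, and the study asked about its place in pancreatic ductal adenocarcinoma. The ages of the mice, and whether each sample came from its own mouse, are not given in the labels used here, so p-values measure the spread between these samples, which may be technical in part.

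The arrays of the groups differed well beyond the Wnt genes. Between 35365 and 35921 probes were well above background on each KCS array, against 26551 to 27235 on each KC array. The 75th percentile of the signal was 347 to 423 scanner units on KCS arrays and 61.2 to 68.6 on KC arrays, and 13.4 to 14.6% of all signal on KCS arrays came from the top 100 probes, against 34.4 to 37.4% on KC arrays. Values below are log2 signals relative to the 75th percentile of the same array, called scaled log2 here, so a level of 0 equals that percentile. Of 27103 rows tested with limma, 25.9% were called higher in KCS and 34.4% lower at a Benjamini-Hochberg adjusted p below 0.05. Setdb1 itself had scaled log2 levels of -0.28, -0.44 and -0.55 on KCS arrays and -0.91, -1.05 and -0.32 on KC arrays, a difference of 0.33 ± 0.24 (SE, adjusted p = 0.270). Its groups overlapped. The place of its probe relative to the floxed exons is not known, so the probe does not check the labels. Markers of the KCS arrays went against the acinar label: all 9 acinar markers were lower in KCS, and their summed signal, relative to the 75th percentile, was 3.57, 15.2 and 1135 on KCS arrays 1 to 3 against 17408 to 20550 on KC arrays. Cpa1, a digestive enzyme of acinar cells, had scaled log2 levels of -1.87, -0.61 and 7.53 on KCS arrays and 11.65, 11.43 and 11.61 on KC arrays. In bulk RNA, fewer cells of a type and less RNA per cell cannot be told apart.

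Promoters are shown first for Wnt7a, which no KC array detected, and for Wnt2, with the largest difference among the ligands that KC arrays detected. Also shown are the promoter of Wnt11 that holds a Tcf and Lef motif and that of Wnt1, the ligand that was called lower. Each sequence is the 250 bases before the gene's start in the RefSeq promoter table, 5′ to 3′ on the gene's own strand, with the build GRCm38.p6. Capitals mark CG pairs in Wnt7a, Wnt2 and Wnt1, and the motif in Wnt11.
Wnt7a, chr6:91411354-91411603, minus strand: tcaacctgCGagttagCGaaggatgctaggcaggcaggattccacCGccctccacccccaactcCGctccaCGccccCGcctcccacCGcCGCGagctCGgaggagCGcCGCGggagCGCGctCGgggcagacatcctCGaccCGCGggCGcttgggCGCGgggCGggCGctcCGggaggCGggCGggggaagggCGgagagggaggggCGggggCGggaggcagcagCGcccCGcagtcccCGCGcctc
Wnt2, chr6:18030446-18030695, minus strand: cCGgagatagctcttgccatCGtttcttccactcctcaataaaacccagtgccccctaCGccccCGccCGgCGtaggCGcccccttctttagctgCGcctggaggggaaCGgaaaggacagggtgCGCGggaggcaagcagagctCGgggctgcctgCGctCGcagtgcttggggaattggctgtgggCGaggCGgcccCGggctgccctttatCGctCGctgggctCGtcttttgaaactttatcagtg
Wnt1, chr15:98789607-98789856, plus strand: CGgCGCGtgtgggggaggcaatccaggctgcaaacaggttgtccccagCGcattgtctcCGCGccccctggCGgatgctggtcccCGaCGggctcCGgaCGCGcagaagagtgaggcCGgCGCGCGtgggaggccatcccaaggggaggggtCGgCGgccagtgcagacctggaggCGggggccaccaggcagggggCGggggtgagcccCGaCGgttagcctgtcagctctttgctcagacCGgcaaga
Wnt11, chr7:98834862-98835111, plus strand: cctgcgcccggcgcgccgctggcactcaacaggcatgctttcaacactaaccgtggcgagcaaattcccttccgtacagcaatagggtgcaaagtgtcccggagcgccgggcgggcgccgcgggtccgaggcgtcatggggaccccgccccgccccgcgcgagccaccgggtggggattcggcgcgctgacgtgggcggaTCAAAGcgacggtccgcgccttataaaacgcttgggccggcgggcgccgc

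The 3 stretches with CG capitals hold 34 CG pairs in Wnt7a, 20 in Wnt2 and 23 in Wnt1. Over windows of 300 bases (250 before and 50 after the start), 7 of the 10 ligand genes had 10 promoters in the table, with a median of 36.5 CG pairs and a range of 4 to 58, and 8 of the other 9 ligands had a median of 25. All 32851 promoters of that length had a median of 7 CG pairs, with quartiles of 3 and 20. A pair of motifs was searched on both strands. CTTTGA, the core bound by Tcf and Lef factors, was found in 2 of the 10 promoters, 1 of Wnt11 and 1 of 3 promoters of Wnt5b. In Wnt11 the match is the capitals above, read on the opposite strand, 50 bases before the start. Another promoter of Wnt11 did not hold CTTTGA. That core lies in 16.0% of all promoters. The AP-1 motif TGANTCA was found in 1 of the 10, another promoter of Wnt5b at 191 bases before its start, and in 7.81% of all promoters. The motifs share no overlapping match in these promoters. A match describes letters only.

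All 10 ligand genes passed the filter on dim probes, and all 10 were called higher in KCS. Of them 3 passed the filter through KCS arrays alone, which favours a call of higher, 2 were also seen on 2 KC arrays, and 5 were seen on all 6 arrays. Over all rows 25.9% were called higher, and over rows with a gene symbol 32.4%. The 10 genes were chosen with earlier results of these data known, and Wnt1, which was called lower, is not among them. Their counts beside the shares of all rows, here and in the rest of this paragraph, are therefore a description and no separate evidence. The median fitted log2 fold change, KCS over KC, was 2.87 over the 10 genes, 2.65 with the 3 genes at the bounds given below, and 2.19 over the 5 genes seen on all arrays. The medians over all rows and over rows with a symbol were -0.19 and 0.07. In each of the 10, all 3 KCS arrays lay above all 3 KC arrays, as in 29.8% of all rows. That includes KCS array 3, whose acinar marker sum (1135) was the highest of its group, against 17408 to 20550 on KC arrays. The part of the acinar signal in the ligands' differences was not tested. All 10 differences were positive on both slides, against 39.3% of all rows. The first slide held 1 array of each group and the second 2 of each. With the arrays scaled on the control spike-ins instead, the median over all rows moved to 2.69, and 96.8% of the calls were higher in KCS, against 42.9% of the calls under the percentile. Both scalings move every gene of an array by 1 amount, so the ligands' distance from the median of all rows is the same by construction. Under normexp background correction of the median signals, 9 ligands stayed called with log2 fold changes of 0.88 to 3.43, and Wnt6 did not.

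**Figure D1:**
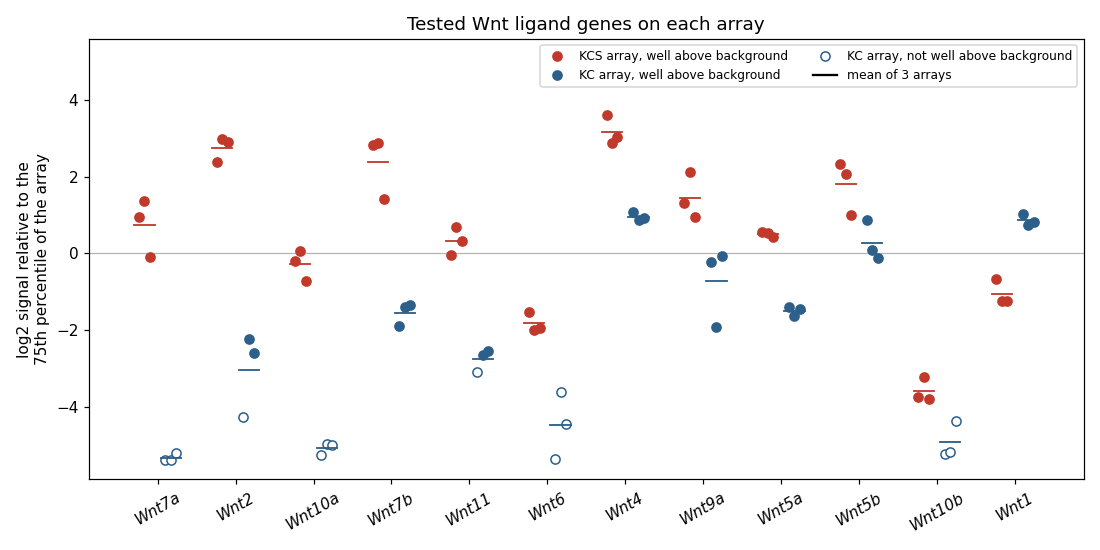
Scaled log2 signal of the 12 tested Wnt ligand genes on each array, with KCS left of KC for each gene and a line at the mean of 3 arrays. Open circles mark arrays on which the probe was not well above background. In the 10 genes from Wnt7a to Wnt5b every KCS point lies above every KC point, Wnt10b shows the same near the bottom of the range, and Wnt1 shows the opposite.

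Of the 10 ligand genes, 3 were well above background on every KCS array and on no KC array. Of all 56605 probes, those that did not pass the filter included, 10.2% showed that pattern, and 0.405% the opposite one. The 10 genes all passed the filter, so the count of 3 and these shares have unlike bases. These genes passed the filter through KCS arrays alone, which favours small p-values, so their p-values are no separate evidence. The same holds for every pathway gene below that no KC array detected, and passing in this way also favours its being counted as higher. Their fold is a lower bound under the extraction program's background correction, taken against the dimmest signal well above background on each KC array or the probe's own signal where that was higher. Wnt7a encodes a ligand known for axon and synapse formation and for the patterning of limbs and the female reproductive tract. Its probe read 754, 1094 and 328 scanner units on KCS arrays 1 to 3, against 1.58, 1.65 and 1.65 on KC arrays. On the scaled log2 that was 0.94, 1.37 and -0.08 in KCS and -5.40, -5.38 and -5.21 in KC. Every KCS array was high and the KC arrays sat together at the floor. Its signal exceeded the KC bound at least 17.8-fold, with an adjusted p of 1.08e-04, and no exact fold can be given.

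Wnt10a, a ligand needed for teeth, hair and sweat glands, had scaled log2 levels of -0.21, 0.06 and -0.72 on KCS arrays and -5.27, -4.98 and -4.99 on KC arrays. The groups lay far apart, with a spread of less than 1 within each. KCS signal exceeded the KC bound at least 8.70-fold, with an adjusted p of 8.19e-05. Wnt6, a ligand of epithelia known from kidney and somite development, had -1.54, -2.01 and -1.94 on KCS arrays and -5.38, -3.63 and -4.44 on KC arrays. KCS arrays stood at least 2.99-fold above the KC bound (limma, adjusted p = 0.00253). With another background correction, normexp on the median signals, its direction turned (log2 fold change -0.27, adjusted p = 0.0604), while Wnt7a and Wnt10a stayed called with smaller values of 1.99 and 0.88. Wnt6 and Wnt10a are next to each other on chromosome 1 in the order of protein-coding genes.

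Wnt2, a ligand known from the lung, the placenta and the liver's endothelium, had the largest difference among the 7 ligands that KC arrays detected. Its scaled log2 levels were 2.38, 3.0 and 2.90 on KCS arrays, against -4.28, -2.25 and -2.60 on KC arrays, of which arrays 2 and 3 were well above background. The KCS arrays were alike (SD 0.33) and the KC arrays were not (SD 1.09), KC array 1 being the low one. The log2 fold change was 5.80 ± 0.54 (SE, adjusted p = 3.00e-04), or 55.6-fold, with 6.66 on the first slide and 5.37 on the second. It was 5.18 without KC array 1 and 3.43 under normexp.

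Wnt7b, a ligand of lung, skin and kidney epithelia and the closest relative of Wnt7a, was well above background on all 6 arrays. Its levels were 2.83, 2.88 and 1.43 on KCS arrays and -1.89, -1.39 and -1.36 on KC arrays. KCS array 3 was the low one of its group and still lay above every KC array. The log2 fold change was 3.92 ± 0.43 (SE, adjusted p = 4.96e-04), or 15.2-fold. Its second probe gave 0.49, 0.25 and -1.34 on KCS arrays against -1.98, -3.03 and -3.16 on KC arrays, a difference of 2.52 ± 0.56 (SE, adjusted p = 0.00813 with each probe tested on its own).

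Wnt4, known for its part in the kidney and the gonad, was well above background on all 6 arrays. Its levels were 3.60, 2.87 and 3.04 on KCS arrays and 1.08, 0.88 and 0.92 on KC arrays. The groups did not overlap. It was 4.63-fold higher in KCS (log2 2.21 ± 0.24 SE, adjusted p = 4.73e-04). Wnt9a, a ligand of joints and skeletal tissue, had 1.31, 2.11 and 0.94 on KCS arrays and -0.22, -1.91 and -0.07 on KC arrays. KC array 2 stood below the other KC arrays, and the lowest KCS array stood 1.01 above the highest KC array. The log2 fold change was 2.19 ± 0.56 (SE, adjusted p = 0.0146), which a threshold of 0.01 would lose, and 1.6 without KC array 2.

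Wnt5a, Wnt5b and Wnt11 are the ligands best known for β-catenin-independent signalling. Wnt11, which acts in cell movement during gastrulation and in the kidney, had -0.05, 0.70 and 0.32 on KCS arrays and -3.08, -2.66 and -2.55 on KC arrays. It was 8.48-fold higher in KCS (log2 3.08 ± 0.26 SE, adjusted p = 2.32e-04), and its second probe was higher too, by 1.57 ± 0.29 (SE, adjusted p = 0.00371 with each probe tested on its own). Both slides gave nearly the same difference for the brighter probe, 3.03 and 3.11. That probe was well above background on 2 KC arrays and the second probe on 1. Normexp gave Wnt11 a log2 fold change of 1.13. Wnt5a, a ligand of Ror2 that directs outgrowth of the limbs and other axes, had 0.57, 0.54 and 0.42 on KCS arrays and -1.40, -1.63 and -1.46 on KC arrays. It had the smallest SE of the 10, with a log2 fold change of 2.01 ± 0.17 (adjusted p = 2.11e-04), or 4.02-fold. Its second probe was well above background on 2 KCS arrays and no KC array and was not tested.

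Wnt5b, the close relative of Wnt5a, had the smallest fitted difference. Its levels were 2.34, 2.08 and 1.0 on KCS arrays and 0.86, 0.10 and -0.11 on KC arrays, so the lowest KCS array stood 0.14 above the highest KC array. The log2 fold change was 1.53 ± 0.43 (SE, adjusted p = 0.0202). The second probe overlapped between the groups, with 0.22, -0.05 and -1.0 on KCS arrays against -0.29, -1.02 and -0.74 on KC arrays (difference 0.41 ± 0.37 SE, adjusted p = 0.373). The call also failed with the mean of both probes (0.97, adjusted p = 0.0724) and when KCS array 1, KCS array 2, KC array 2 or KC array 3 was left out (1.26 to 1.43, adjusted p = 0.0580 to 0.0678).

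**Figure D2:**
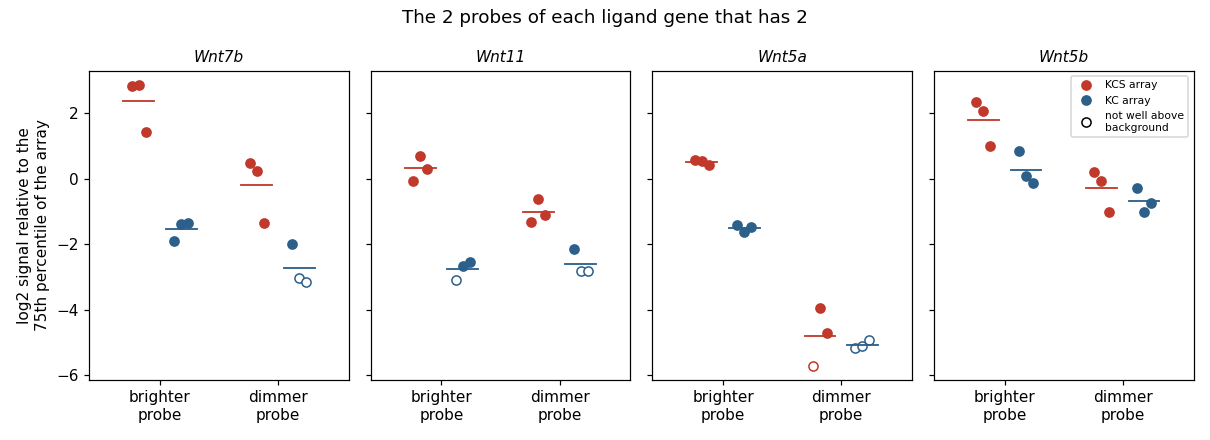
Scaled log2 signal of both probes of the 4 ligand genes that have 2, with KCS left of KC and a line at each mean of 3 arrays. The brighter probe stands for the gene in the test. KCS lies above KC for both probes of Wnt7b and Wnt11, whereas the dimmer probes of Wnt5a and Wnt5b overlap between the groups.

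Among the 7 ligands seen on 2 or 3 KC arrays, the log2 differences ran in the order Wnt2, Wnt7b, Wnt11, Wnt4, Wnt9a, Wnt5a and Wnt5b. Of the 6 pairs of neighbours in that order, 5 differed by less than 2 SE of their difference. The other pair was Wnt2 above Wnt7b, by 1.87 ± 0.73 (SE), with Wnt2 not well above background on KC array 1. Normexp changed the order, with Wnt11 (1.13) below Wnt4 (2.32) and Wnt9a (1.62). KCS array 3 was the lowest KCS array in 6 of the 10 genes, and the share of all rows with that order was not counted. The array lay below the mean of KCS arrays 1 and 2 by the most in Wnt7b (-1.42), Wnt7a (-1.24) and Wnt5b (-1.21) and above it in Wnt2 (0.21). That array was also the one with an acinar marker sum of 1135. A link between that sum and the ligands' levels was not tested. With KCS array 3 left out all 10 genes were called higher.

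**Figure D3:**
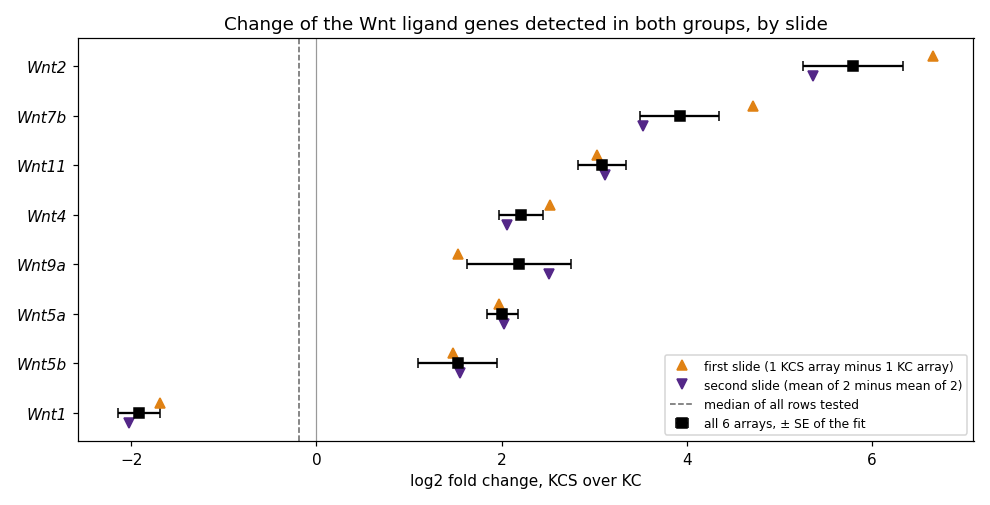
Log2 fold change of the 8 Wnt ligand genes seen on 2 or 3 KC arrays, KCS over KC, with the SE of the fit over 6 arrays as bars and the difference on each slide as triangles. Every gene but Wnt1 lies right of 0 on both slides, the slides stand farthest apart for Wnt2 (6.66 and 5.37), and the dashed line is the median of all rows at -0.19.

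The other 9 mouse Wnt genes were mostly dark. Wnt2b, Wnt3, Wnt3a, Wnt8a, Wnt8b, Wnt9b and Wnt16 were well above background on no array and were not tested. Wnt1, a ligand of the developing midbrain, had -0.67, -1.25 and -1.25 on KCS arrays and 1.02, 0.74 and 0.82 on KC arrays. It was called lower in KCS by the percentile scaling (log2 fold change -1.92 ± 0.23 SE, adjusted p = 6.59e-04), and higher under the spike-in scaling (0.96, adjusted p = 0.0249). In scanner units it read 247, 178 and 146 on KCS arrays and 135, 115 and 108 on KC arrays. Wnt10b, a ligand known to hold back fat cell formation, lies next to Wnt1 on chromosome 15. It had -3.74, -3.22 and -3.79 on KCS arrays and was well above background on no KC array, with -5.22, -5.19 and -4.37. Its call of higher in KCS (1.34 ± 0.30 SE, adjusted p = 0.00877) has no fold bound above 1, and normexp turned it (-1.24, adjusted p = 3.66e-05). Wnt9a is next to Wnt3a on chromosome 11, where Wnt9b and Wnt3 are also neighbours, and of those 4 genes only Wnt9a was well above background on any array.

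Genes that make and export Wnt ligands did not move as one. Of 10 measured, 3 were higher in KCS, 2 lower and 5 did not pass. For this list and those below, the shares over all rows were 25.9% higher and 34.4% lower. Of rows with a gene symbol 32.4% were higher, so the count of 3 is near the background share. Wls, the carrier of lipidated ligands, had 2.82, 3.05 and 2.58 on KCS arrays and 0.68, 1.18 and 0.37 on KC arrays. It rose by 2.07 ± 0.26 on the log2 scale (SE, adjusted p = 8.68e-04), and its second probe by 0.54 ± 0.19 (adjusted p = 0.0467 with each probe tested on its own). Porcn, the acyltransferase, had 1.86, 2.40 and 1.52 on KCS arrays and 0.95, 1.23 and 1.35 on KC arrays (log2 0.75 ± 0.27 SE, adjusted p = 0.0487), a call lost under 10 of 23 alternatives. Vps29, a subunit of the retromer that returns Wls from endosomes, was higher by 1.19 ± 0.18 (adjusted p = 0.00193), and its dimmer probe did not pass. Tmed10, a cargo carrier between the endoplasmic reticulum and the Golgi, was lower by the percentile scaling (-1.15 ± 0.17, adjusted p = 0.00165) and higher by the spike-in scaling (1.73).

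Among 18 receptors and co-receptors, 7 were higher, 5 lower and 6 did not pass. Their log2 fold changes ran from -4.02 to 5.38, with a median of 0.20. Of the 18, 2 were well above background on no KC array, which favours a call of higher. Fzd1 had 5.13, 5.03 and 4.45 on KCS arrays and -0.47, -0.46 and -0.60 on KC arrays. That Frizzled rose by 5.38 ± 0.23 (SE, adjusted p = 6.29e-05), or 41.6-fold. Fzd2, another Frizzled, was 12.2-fold higher (log2 2.51 under normexp), and Adgra2, which with Reck helps endothelial cells read Wnt7a and Wnt7b, was 10.7-fold higher. Ror2, a receptor for Wnt5a, had 2.20, 2.21 and 2.29 on KCS arrays and 1.09, 1.0 and 1.30 on KC arrays (log2 1.11 ± 0.17 SE, adjusted p = 0.00179). Fzd6 (0.24 ± 0.22, adjusted p = 0.375) and the co-receptor Lrp6 (0.33 ± 0.22, adjusted p = 0.240) did not pass. The dimmer probe of Lrp6 was higher (0.61 ± 0.20 SE, adjusted p = 0.0377 with each probe tested on its own). Under normexp Lrp6 was called higher (0.77, adjusted p = 0.00455).

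Extracellular antagonists had 8 of 13 tested members higher, 2 lower and 3 not passed, with Dkk1, Dkk4 and Sost too dim to test. Their log2 fold changes ran from -8.60 to 6.92, with a median of 2.02, so the largest difference of the list was a fall. Of the 13, 3 were well above background on no KC array, which favours a call of higher. Sfrp1, a decoy that binds Wnt ligands, had 4.22, 3.57 and 2.92 on KCS arrays, and on KC arrays it was not well above background, at -3.44, -2.97 and -3.62. KCS arrays were at least 118-fold higher by the extraction program's background correction, with an adjusted p of 8.56e-05, and normexp gave a log2 fold change of 4.22. Dkk2, which binds Lrp5 and Lrp6, was at least 28.4-fold higher, with no KC array well above background, and had a log2 fold change of 2.35 under normexp. Trabd2b, a metalloprotease that cleaves Wnt ligands, was 4.05-fold higher (adjusted p = 2.03e-04), or 0.53 on the log2 scale under normexp. Notum, which removes the lipid, had 3.15, 2.47 and 1.99 on KCS arrays and 2.54, 1.90 and 2.08 on KC arrays and did not pass (0.37 ± 0.34 SE, adjusted p = 0.380), while its dimmer probe was lower (-1.78 ± 0.33 SE, adjusted p = 0.00411 with each probe tested on its own).

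R-spondins amplify Wnt signals by clearing the ubiquitin ligases Znrf3 and Rnf43 from the membrane through Lgr receptors. Of 6 tested genes 1 was higher, 3 lower and 2 not passed, and Rspo2, Rspo4 and Lgr6 were not tested. Lgr5 had 1.03, 0.97 and 0.13 on KCS arrays, and -5.30, -5.24 and -4.16 on KC arrays, none of them well above background. KCS arrays were at least 17.4-fold higher, with an adjusted p of 1.48e-04, and normexp gave a log2 fold change of 1.66. Rspo3 was lower (-2.05 ± 0.41 SE, adjusted p = 0.00536), and Znrf3 was lower with the probe that stands for it (-1.23 ± 0.16 SE, adjusted p = 0.00106), though 1 of its other probes gave 0.20. Under the spike-in scaling both signs turned, with Rspo3 at 0.83 (adjusted p = 0.0561, not passed) and Znrf3 called higher at 1.65.

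Inside the cell, β-catenin transduction genes were split, with 6 of 15 higher, 4 lower and 5 not passed. Of the 15, 1 was well above background on no KC array. Ctnnb1, which encodes β-catenin, had 4.29, 4.34 and 4.19 on KCS arrays and 3.31, 3.47 and 3.26 on KC arrays (log2 0.93 ± 0.16 SE, adjusted p = 0.00326), but its second probe gave -0.35 (adjusted p = 0.152). Dvl3 and Dvl1 encode the Dishevelled proteins that bind active Frizzleds. Dvl3 was lower under the percentile (-3.69 ± 0.38 SE, adjusted p = 4.18e-04) and did not pass under the spike-ins (-0.81, adjusted p = 0.104). Dvl1 was lower under the percentile (-1.66 ± 0.26 SE, adjusted p = 0.00192) and higher under the spike-ins (1.22).

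Genes known to respond to β-catenin had 9 of 13 higher, 3 lower and 1 not passed, with a median log2 fold change of 1.81. Of the 13, 3 were well above background on no KC array, which favours a call of higher and raises the count and the median. Lgr5, Znrf3 and Rnf43 are on this list as well as on the R-spondin list. Nkd1, an inducible brake on the pathway, had 1.51, 1.78 and 1.19 on KCS arrays and -2.31, -2.04 and -2.31 on KC arrays, a 13.1-fold difference (adjusted p = 9.68e-05) with a log2 value of 2.10 under normexp. Lef1, a partner of β-catenin on DNA, was at least 9.67-fold higher, with 0.12, 0.20 and -0.72 on KCS arrays and no KC array well above background, and normexp gave it a log2 fold change of 0.93. Axin2, the most used readout of the pathway, had -0.37, -1.14 and -1.89 on KCS arrays and -2.14, -2.51 and -4.18 on KC arrays. Its log2 fold change of 1.81 ± 0.62 (SE) passed narrowly (adjusted p = 0.0419), lost its call under 6 of 22 alternatives (1.2 without KC array 3) and was -0.015 under normexp. The dimmer probe of Axin2 was well above background on 2 KCS arrays and no KC array, overlapped between the groups and was not tested. Among 10 planar polarity genes 5 were higher, 3 lower and 2 not passed, and 1 of the 10 was well above background on no KC array. Vangl2, a core polarity protein, was 6.27-fold higher (adjusted p = 2.67e-04), or 1.45 on the log2 scale under normexp and 0.92 with its dimmer probe. Celsr2 and Celsr1, cadherins of the same system, were lower under the percentile, by -4.69 ± 0.22 and -2.02 ± 0.27 (SE). The spike-in scaling turned Celsr1 (0.86) and not the probe that stands for Celsr2 (-1.81). The other probes of Celsr2 gave smaller differences under the percentile, -1.65 and -2.48, and were not tested under the spike-ins.

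**Figure D4:**
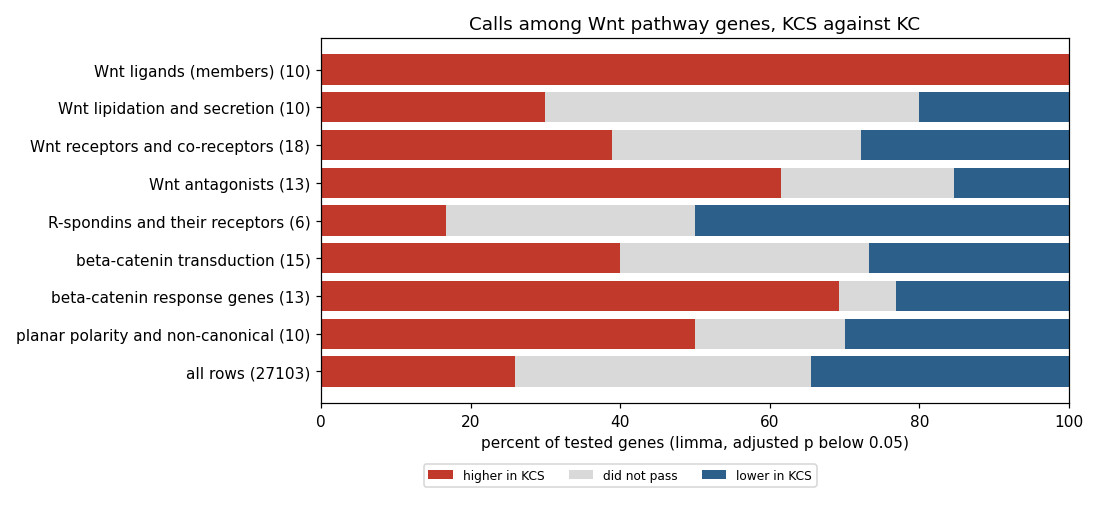
Share of tested genes in each Wnt pathway list that were called higher in KCS, did not pass, or were called lower, with the number tested in brackets and all rows at the bottom. The ligand list is a chosen 10 that leaves out Wnt1, which was called lower, and 3 of its genes passed the filter through KCS alone. The shares of all rows are 25.9% higher and 34.4% lower, and the pathway lists hold 6 to 18 tested genes.

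Markers of several other cell types were higher in KCS beside the ligands, and those of others were lower. Of 10 fibroblast and stellate cell markers, 10 were higher in KCS, and their summed signal relative to the 75th percentile was 1151 to 1440 on KCS arrays and 206 to 276 on KC arrays. Macrophage markers were higher for 7 of 8 (300 to 376 in KCS, 57.7 to 84.1 in KC), and endothelial markers for 5 of 6 (19.6 to 49.3 in KCS, 9.72 to 11.5 in KC). Ductal markers were higher for 4 of 9 and lower for 2 (274 to 356 in KCS, 58.3 to 78.6 in KC), and mesothelial markers were higher for 2 of 4 tested (13.3 to 20.8 in KCS, 2.24 to 5.58 in KC). Neutrophil markers were higher for 3 of 4, with a summed signal of 96.4 to 110 in KCS and 145 to 243 in KC. Islet markers were lower for 5 of 6 (124 to 219 in KCS, 862 to 984 in KC). Lymphocyte markers were higher for 1 of 5 and lower for 2 (1.44 to 4.89 in KCS, 6.38 to 12.5 in KC), and Schwann cell markers were higher for 1 of 3 tested and lower for 2 (0.616 to 0.730 in KCS, 0.756 to 1.03 in KC). Each tested marker of the fibroblast, macrophage, endothelial, ductal and mesothelial lists was well above background on at least 1 array of each group. The part of these cells in the ligands' differences was not tested.

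Other genes were ranked by how near their centred profile over the 6 arrays came to that of a ligand, as the root mean square of the log2 differences. The nearest match was to Wnt5a, with Pld2 at 0.0370 and Kctd10 at 0.0637. Those nearest to Wnt7b were Rerg (0.106) and Ccnjl (0.138), and those nearest to Wnt10a were Gm9733 (0.107) and Zmynd15 (0.119). Wnt4 lay closest to Chst12 and Trim12c (both 0.114), Wnt11 to Mcm4 (0.129) and Micall2 (0.137), and Wnt9a to Hoxc6 (0.141) and Fbxo32 (0.190). Wnt5b was matched by Hlx (0.161) and Vnn3 (0.172), Wnt6 by Sulf2 (0.185) and Ifitm10 (0.202), and Wnt7a by Parvg (0.224) and Sox11 (0.229). Wnt2 had no neighbour nearer than 0.358, for Coro2a and Tnnt2. For Wnt6, Wnt7a and Wnt10a the KC part of the profile was not well above background. No ligand was among the 2 nearest genes of another ligand.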

How the data were processed

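Each of the 6 deposited files holds 1 array of 62976 spots, of which 3671 are controls. Per the labels' protocols, column-purified total RNA was amplified (Pico WTA) and carried the dye Cy3. Per the file headers and the submitters' processing notes, the scans went through Agilent Feature Extraction (version 12.0.3.1), whose processed signal is an intensity already corrected for background. The deposited value table holds log2 values that matched, for 36110 of 36136 rows, the scanner signals scaled to the 75th percentile and centred per probe (r of 0.999999 or above); its column medians were -0.05, -0.03 and -0.04 for KCS arrays and -0.01, 0.05 and 0.10 for KC arrays.

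The log2 processed signal minus the array's 75th percentile over 56605 probes was used here, without the 88 to 140 outlier spots per array. Saturated spots numbered 0. The filter kept probes that 3 or more of the 6 arrays showed well above background, and 1 probe per gene (the brightest) was tested, and probes without a symbol (22838) each made a row. Groups were compared with limma 3.58.1 in R 4.3.3, with Benjamini-Hochberg adjustment over 27103 rows. The 6 arrays limit the precision. The arrays lay on 2 slides. Same-numbered arrays correlated in their deviations at 0.33, 0.04 and 0.14, so the numbers were not taken as pairs.

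The ligands and gene lists were chosen with earlier results of these data known. Named are every Wnt ligand, Setdb1, up to 3 pathway genes per list by smallest p, 10 pathway genes fixed in name, and the 2 nearest profiles of each ligand. Alternatives were quantile, median and spike-in scaling, the deposited table, other filters, probe means, every probe on its own, outlier spots kept, a robust trend fit, blocks, each slide alone, a stricter threshold, leaving out each array, and normexp with an offset of 50 on the median signals, added after the data were seen.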

Additional observations from a re-analysis of the deposited data

How the results depend on the processing

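Over 23 alternatives the 10 ligands gave 225 log2 fold changes, of which 224 were positive. The first slide alone gave 10 of these without a test. Of the 215 tested, the call held in 206, 8 no longer passed (7 of Wnt5b and 1 of Wnt9a), and 1 of Wnt6 turned. The count of ligands called higher was 5 of the 5 left by the filter for all 6 arrays and 9 to 10 without 1 array each, with 9 without KCS array 1, KCS array 2, KC array 2 or KC array 3. The count called lower was 0 to 0 there. The ligands' median was 5.75 by spike-in scaling, 2.19 with the all-array filter, 1.52 by normexp on median signals, 3.44 on the first slide alone, and 2.68 to 3.11 without 1 array. Rows called numbered 31883 with no filter and 13400 to 15282 without 1 array. Of the calls, 42.9% were higher in KCS in the analysis reported, against 56.5% under median centring (which moved the median of all rows to 0.16), 96.8% under spike-ins, 22.3% with no filter and 31.1% under normexp. Spike-ins turned Wnt1 (0.96), Tmed10 (1.73), Znrf3 (1.65), Rspo3 (0.83), Dvl1 (1.22) and Celsr1 (0.86). The mean of probes turned Notum (-0.71), and every probe on its own turned Znrf3 (0.20) and Ctnnb1 (-0.35). Normexp turned Wnt6 (-0.27), Wnt10b (-1.24), Axin2 (-0.015) and Fzd6 (-0.35). The causes were not tested. A replicate block gave 16448 rows called, 10 ligands higher and the same median of 2.87, and Porcn lost its call (adjusted p = 0.0605). Normexp on mean signals was not run, because no mean-signal column was used here. Signal over background limits Wnt6, Wnt7a and Wnt10a, which KC arrays did not detect, to bounds, and Wnt10b has no fold bound above 1.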
